A study of Mus musculus with 6 samples.

Results

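The 10 genes described here act in ubiquitin conjugation and protein turnover, and were Vcp, Ube2j1, Ube2h, Ufl1, Wwp1, Cul2, Rnf20, Ubap1, Ubap2 and Dcaf12. They were chosen by gene symbol, as 10 rows of the 55357 rows in the count table, and by their position, which agrees between the mouse genome builds GRCm38 and GRCm39. Liver RNA was sequenced from 3 antibiotic-treated (ABX) mice under a short day (SD, 8 h light and 16 h dark) and from 3 ABX mice under a normal cycle (NLD) of 12 h light and 12 h dark. All mice of both groups were C57BL/6 by the labels (C57BL/6N by the methods), drank water with gentamicin, sulbenicillin, cephalosporin and amphotericin B, and were fasted before sampling. The labels give day 28 and no age, whereas the methods describe a longer trial. Mice without antibiotics were not analysed here. Each library came from 1 mouse, and the liver was not separated into cell types, so that fewer cells of a type and less RNA per cell cannot be told apart.

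Ubiquitin is a small protein that cells attach to other proteins. An activating enzyme (E1) hands it to a conjugating enzyme (E2), and a ligase (E3) directs it to a target. Targets marked with ubiquitin chains are often degraded by the proteasome, while other marks steer membrane proteins to lysosomes or change chromatin. In the liver, which makes and secretes large amounts of protein, faulty proteins of the endoplasmic reticulum (ER) are pulled out of its membrane and degraded.

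The libraries held 5548753 to 6932965 counts under SD and 5497797 to 6457190 under NLD. Values are in CPM, counts relative to the effective size of each library. The quasi-likelihood test of edgeR set SD against NLD over 7261 rows, and p-values were adjusted over all of them by Benjamini-Hochberg. NLD replicate 2 stood apart on the first principal component, at 75.0, with NLD replicate 3 at 27.7 and the other 4 libraries between -44.7 and -13.3. The labels name GRCm38 and the methods GRCm39, and 556 of 21113 protein-coding rows have positions that agree between them, called position-stable here. Of the hepatocyte markers, 10 of 19 had a count and 9 were at 0 in every library, Apoa1, Apob and Ttr among them. The 10 summed to 20295 to 26235 CPM under SD and 19786 to 24378 CPM under NLD. Among the 10, Alb averaged 1.25 CPM over the 6 libraries and Cyp7a1 averaged 3400 CPM. Of 333 pathway genes in the table, described below, 134 were at 0 in all 6 libraries, against 0 of the 17 position-stable ones. Whether rows that are not position-stable carry the right symbol was not tested, and their values are given under the symbol of the count table. The summed markers of endothelial cells, 4 of 8 at 0 in every library, had 1701 to 1930 CPM under SD and 1494 to 2096 CPM under NLD. Those of lymphocytes, 5 of 7 at 0, had 327 to 362 CPM under SD and 358 to 522 CPM under NLD. The other 5 marker lists summed to at most 22.2 CPM in every library, and only 2 markers, both of hepatocytes, were position-stable.

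Short days moved none of the 10 genes past an adjusted p under 0.05 in the liver of ABX mice. By edgeR 0 of 10 passed, against 0.289% of all rows tested (0.193% higher and 0.0964% lower under SD), and by DESeq2 0 of 10 passed, against 1.89%. At an unadjusted p under 0.05 each tool gave 1 of the 10, Wwp1, against 8.48% of all rows by edgeR and 9.93% by DESeq2. The log2 fold change was above 0 in 4 genes and below 0 in 6, with a median of -0.01, against 0.03 over all rows tested. The 95% confidence interval stayed within 1.5-fold in either direction for 9 of the 10 genes and within 2-fold for all 10. The 10 genes were highly expressed, with a median of 457 CPM against 13.6 CPM over all rows tested.

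**Figure D1:**
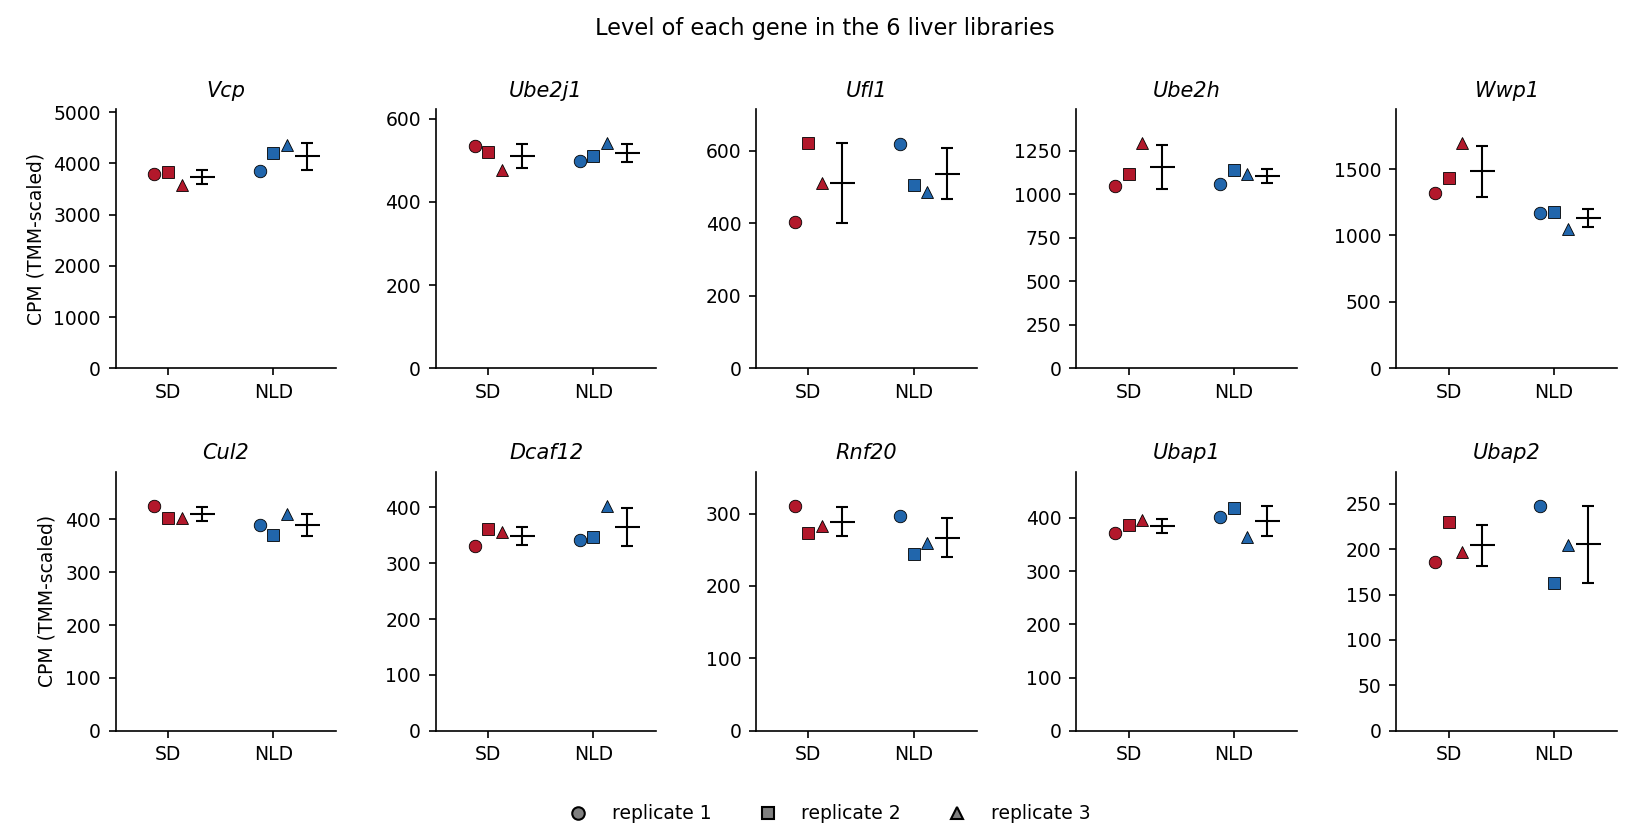
CPM of the 10 genes in each SD library (left in each panel) and each NLD library (right), with a line at the group mean and a bar of 1 standard deviation (n = 3 each). The groups do not overlap for Wwp1, which is higher under SD, and for Vcp, which is lower under SD.

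Vcp encodes p97, an ATPase that pulls ubiquitinated proteins out of membranes and complexes so that the proteasome can degrade them. The gene is on the minus strand of chr4:42979412-43000527 in GRCm39. Vcp had 3796, 3834 and 3579 CPM under SD, against 3848, 4207 and 4357 CPM under NLD. All SD libraries were below all NLD libraries, as in 7.93% of the rows tested, with the gap between SD replicate 2 and NLD replicate 1 narrow. The means were 3737 ± 138 CPM under SD and 4137 ± 262 CPM under NLD (standard deviation, n = 3 each). SD over NLD gave a log2 fold change of -0.15 (95% confidence interval -0.42 to 0.12), and the difference did not pass the test of edgeR (adjusted p = 0.723). Vcp made up 43.5% of the summed CPM of the 10 genes. Its related sequence Vcp-rs had 64.2, 20.4 and 36.5 CPM under SD, against 32.5, 17.1 and 30.2 CPM under NLD, and adding it to Vcp gave a log2 fold change of -0.14.

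The stretch before the start of Vcp is shown because it holds a letter match to the UPR element, a motif bound by factors of the unfolded protein response. The motif searched was TGACGTGG on both strands, within the 250 bases before a start, and the capitals mark the match, which lies directly after a CCAAT box. It was found in 0.563% of 32851 such windows and, among the 10 genes, before Vcp and Ube2j1. Sequences are from RefSeq (GRCm38.p6), and 8 of the 10 genes, all but Wwp1 and Cul2, had an entry. The bases searched for Rnf20, chr4:49638375-49638624, lie inside the span of that gene. The stretch before Vcp lies at chr4:43000529-43000757 on the minus strand.
Vcp: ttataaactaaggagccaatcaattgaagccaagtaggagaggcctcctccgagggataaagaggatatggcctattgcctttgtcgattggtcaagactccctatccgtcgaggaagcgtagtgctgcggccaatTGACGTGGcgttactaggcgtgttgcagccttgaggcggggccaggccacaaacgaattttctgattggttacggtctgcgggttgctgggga
The stretch before Ube2j1 lies at chr4:33031130-33031367 on the plus strand, and its capitals mark the same motif read on the opposite strand.
Ube2j1: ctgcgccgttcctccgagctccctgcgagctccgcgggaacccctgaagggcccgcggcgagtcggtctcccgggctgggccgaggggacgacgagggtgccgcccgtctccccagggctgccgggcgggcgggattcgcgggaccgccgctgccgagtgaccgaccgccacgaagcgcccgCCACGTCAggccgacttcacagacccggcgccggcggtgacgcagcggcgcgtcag
A letter match is a description and not a measured binding site.

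Ube2j1 encodes an E2 anchored in the ER membrane that takes part in degrading faulty ER proteins. Its locus is on the plus strand of chr4:33031369-33052363 in GRCm39. Ube2j1 had 534, 519.9 and 478 CPM under SD, against 499.8, 511 and 542 CPM under NLD. The groups overlapped, with SD replicate 3 the lowest library and NLD replicate 3 the highest. The log2 fold change was -0.02 (95% confidence interval -0.29 to 0.25, adjusted p = 0.971 from edgeR). Vcp and Ube2j1, the genes with a letter match to the UPR element, had log2 fold changes of -0.15 and -0.02, and neither passed the test. Control by the unfolded protein response was not tested.

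Ufl1 encodes the ligase that attaches UFM1, a ubiquitin-like protein, to targets at the ER. It lies on the minus strand of chr4:25246336-25281853 in GRCm39. Ufl1 had 403, 622 and 510.4 CPM under SD, against 619, 506 and 488 CPM under NLD. SD replicate 1 was the lowest library and SD replicate 2 the highest, so the NLD values lay inside the range of the SD values. Ufl1 had the largest coefficient of variation of the 10 genes in a group, 21.3% under SD. Its log2 fold change was -0.07 (95% confidence interval -0.53 to 0.39, adjusted p = 0.928 from edgeR).

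Ube2h encodes an E2 that works with the GID/CTLH ligase. The gene is on the minus strand of chr6:30211288-30304564 in GRCm39. Ube2h had 1051, 1118 and 1296 CPM under SD, against 1062, 1139 and 1118 CPM under NLD. SD replicate 3 was the highest library and SD replicate 1 the lowest, and the groups overlapped. Its log2 fold change was 0.06 (95% confidence interval -0.24 to 0.36, adjusted p = 0.904 from edgeR). A site before one of its RefSeq starts, at chr6:30304546-30304573 on the minus strand of GRCm38.p6, is shown because it matches the CRE. This motif is bound by cyclic AMP response factors. The match lies inside the span of the gene given above, and so not upstream of the whole gene. The letters TGACGTCA, in capitals, were found in 1.55% of the windows.
Ube2h: gcccctcagaTGACGTCAcagaggtgac

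Wwp1 encodes a ligase of the HECT family, whose members carry ubiquitin on a cysteine before passing it to the target. Its locus is on the minus strand of chr4:19605285-19709190 in GRCm39. Wwp1 had 1316, 1435 and 1696 CPM under SD, against 1166, 1175 and 1051 CPM under NLD. All SD libraries were above all NLD libraries, as in 9.08% of the rows tested. The means were 1482 ± 194 CPM under SD and 1131 ± 68.8 CPM under NLD (standard deviation, n = 3 each). SD over NLD gave a log2 fold change of 0.39, or 1.31-fold (95% confidence interval 1.04 to 1.65-fold), with an unadjusted p = 0.0272 and an adjusted p = 0.57 from edgeR. DESeq2 gave an adjusted p = 0.233. Wwp1 was thus higher in 3 of 3 SD libraries and did not pass the test over all rows. Its unadjusted p from edgeR was 0.0543 without SD replicate 2, 0.101 without SD replicate 3, 0.0508 without NLD replicate 2 and 0.0921 without NLD replicate 3, and 0.0188 and 0.0404 without replicate 1 of SD and of NLD.

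In the GRCm39 annotation the exons of Wwp1 share 3784 bp with those of Rmdn1 on the opposite strand, 34.1% of the exon length of Wwp1, while their RefSeq spans in GRCm38 overlap by 0 bp. The strand setting of the counting was not given in the sources used here, so reads in the shared exons cannot be assigned to either gene. Rmdn1 had 285, 387 and 351 CPM under SD, against 420, 525 and 475 CPM under NLD. All SD libraries were below all NLD libraries, the opposite order to Wwp1. The log2 fold change of Rmdn1 was -0.47 (adjusted p = 0.535 from edgeR). Wwp1 and Rmdn1 together had 1601, 1822 and 2047 CPM under SD, against 1586, 1700 and 1526 CPM under NLD, and these groups overlapped. The log2 fold change of the sum was 0.18 (95% confidence interval -0.14 to 0.51, adjusted p = 0.71 from edgeR). The shared bases were 30.3% of the exon length of Rmdn1, whereas the sum holds all its reads. Adding a row of the opposite order lowers the fold change in any case, so the sum does not test how reads were assigned.

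**Figure D2:**
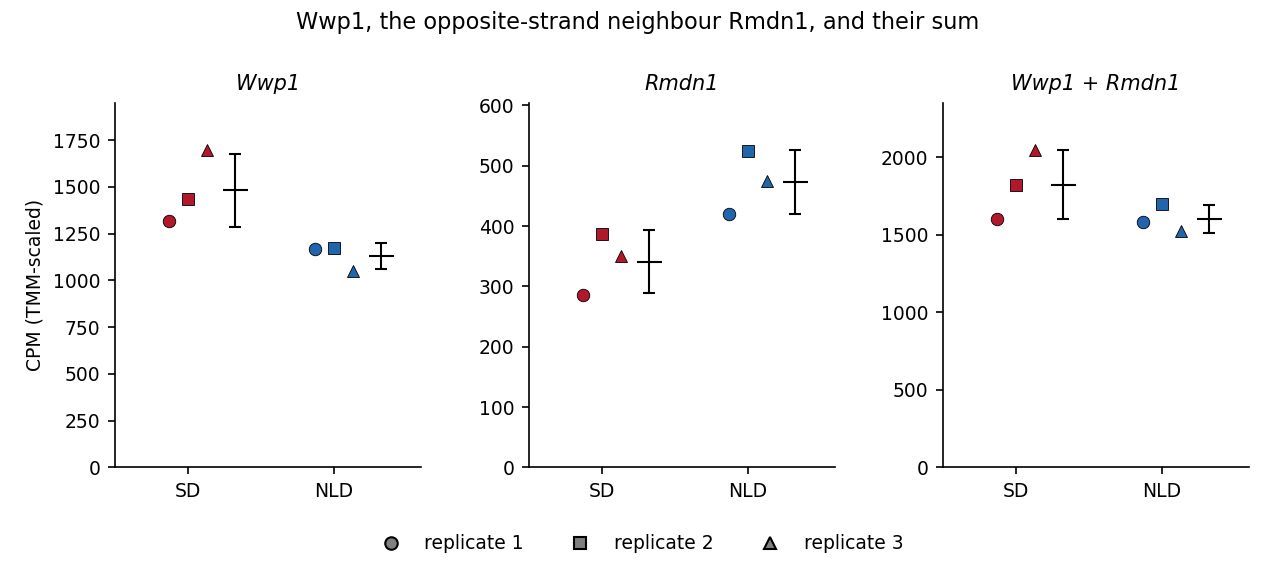
CPM of Wwp1, Rmdn1 and their sum in each SD library (left) and each NLD library (right), with a line at the group mean and a bar of 1 standard deviation (n = 3 each). Wwp1 is higher and Rmdn1 lower in all SD libraries, and the groups overlap for the sum.

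Cul2 encodes a cullin, the scaffold of a ligase that with the von Hippel-Lindau protein marks hypoxia-inducible factors. It lies on the plus strand of chromosome 18, from 3381417 to 3436428 in GRCm39. Cul2 had 426, 403 and 402 CPM under SD, against 389, 369.6 and 409.8 CPM under NLD. NLD replicate 3 lay within the SD values, and the other NLD libraries lay below them. The log2 fold change was 0.07 (95% confidence interval -0.19 to 0.34, adjusted p = 0.87 from edgeR).

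Dcaf12 encodes a substrate receptor of cullin 4 ligases. The gene is on the minus strand of chr4:41281615-41314938 in GRCm39. Dcaf12 had 330, 361 and 355 CPM under SD, against 342, 347 and 403 CPM under NLD. NLD replicate 3 was the highest library, and the other libraries overlapped. Its log2 fold change was -0.06 (95% confidence interval -0.36 to 0.24, adjusted p = 0.904 from edgeR).

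Rnf20 encodes a RING ligase that with Rnf40 attaches a single ubiquitin to histone H2B. Its locus is on the plus strand of chr4:49632006-49656892 in GRCm39. Rnf20 had 311, 273 and 283 CPM under SD, against 296, 244 and 260 CPM under NLD. Replicate 1 was the highest library of each group, and the groups overlapped. SD over NLD gave a log2 fold change of 0.12 (95% confidence interval -0.20 to 0.43, adjusted p = 0.828 from edgeR).

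Ubap1 encodes a subunit of ESCRT-I, which sorts ubiquitinated membrane proteins toward lysosomes. It lies on the plus strand of chr4:41348993-41390525 in GRCm39. Ubap1 had 371, 387 and 396 CPM under SD, against 402, 419 and 364 CPM under NLD. The SD values lay inside the range of the NLD values. The log2 fold change was -0.04 (95% confidence interval -0.32 to 0.24, adjusted p = 0.932 from edgeR). Kif24 overlaps 894 bp of its exons on the opposite strand and had 44, 78 and 77 counts under SD, against 48, 30 and 12 counts under NLD, where Ubap1 had at least 2189 counts in each library.

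Ubap2 encodes a protein with a ubiquitin-associated domain. The gene is on the minus strand of chr4:41194309-41275367 in GRCm39, next to Dcaf12 and Ubap1. Ubap2 had 186, 229.9 and 197 CPM under SD, against 248, 163 and 205 CPM under NLD. The NLD libraries spanned the SD values on both sides. Its log2 fold change was 0.00 (95% confidence interval -0.45 to 0.44, adjusted p = 0.996 from edgeR). A site before a RefSeq start, at chr4:41275136-41275159 on the minus strand of GRCm38.p6, is shown because it matches the E-box. This motif is bound by the clock factors CLOCK and BMAL1 among others. The site lies inside the span of the gene given above, and so not upstream of the whole gene. The letters CACGTG, in capitals, were found in 6.02% of the windows.
Ubap2: acgtagggatCACGTGacgggcag

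**Figure D3:**
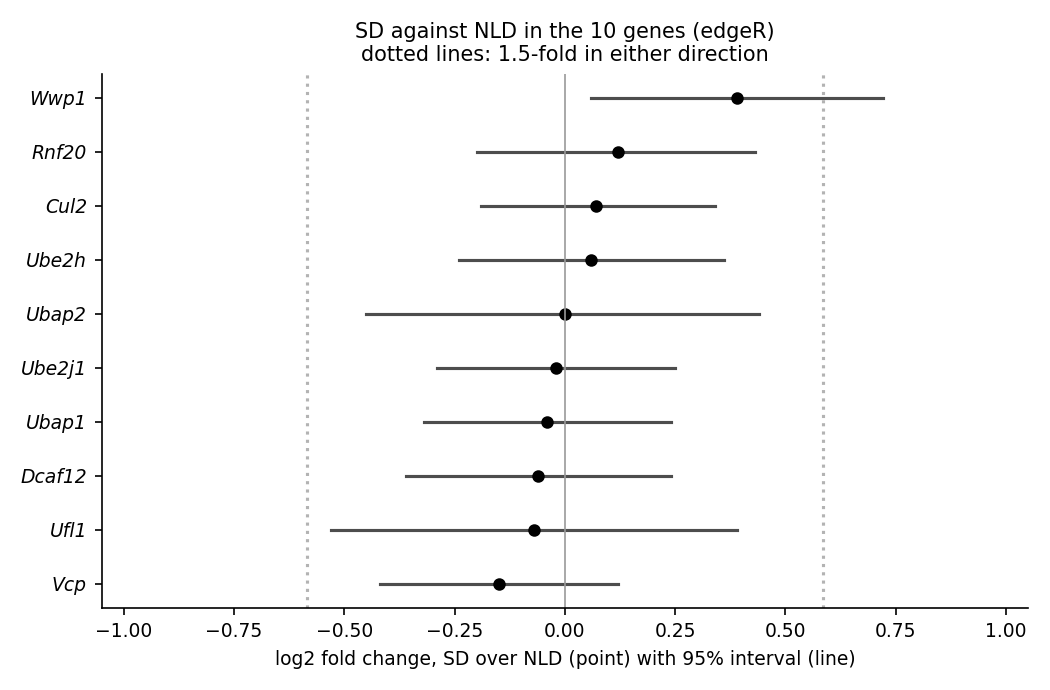
Log2 fold change (SD over NLD) of each of the 10 genes from edgeR (points), with its 95% confidence interval (lines) and dotted lines at 1.5-fold in either direction. Only the interval of Wwp1, 0.06 to 0.72, leaves out 0, and its adjusted p is 0.57.

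Per kilobase of exon, the levels of the 10 genes spanned 21.1-fold. Vcp was highest at 605 CPM per kb under SD and 670 under NLD, followed by Ube2h at 185 under SD and 177 under NLD. Wwp1 had 133 CPM per kb under SD and 102 under NLD, and Ube2j1 had 117 under SD and 119 under NLD. Under SD Ube2j1 lay within the spread of Wwp1 (standard deviation 17.5 CPM per kb), and Ube2h lay above it. Under NLD Ube2j1 lay above Wwp1 beyond their spread (standard deviations 5.04 and 6.19 CPM per kb). Dcaf12, Ubap1 and Ufl1 lay within their spread of each other, between 55.7 and 62.8 CPM per kb under SD and between 58.5 and 65.5 under NLD. Cul2 followed at 44.1 under SD and 41.9 under NLD. Rnf20 and Ubap2 were lowest, at 32.0 and 30.2 CPM per kb under SD and 29.5 and 30.3 under NLD, and did not differ beyond their spread in either group.

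**Figure D4:**
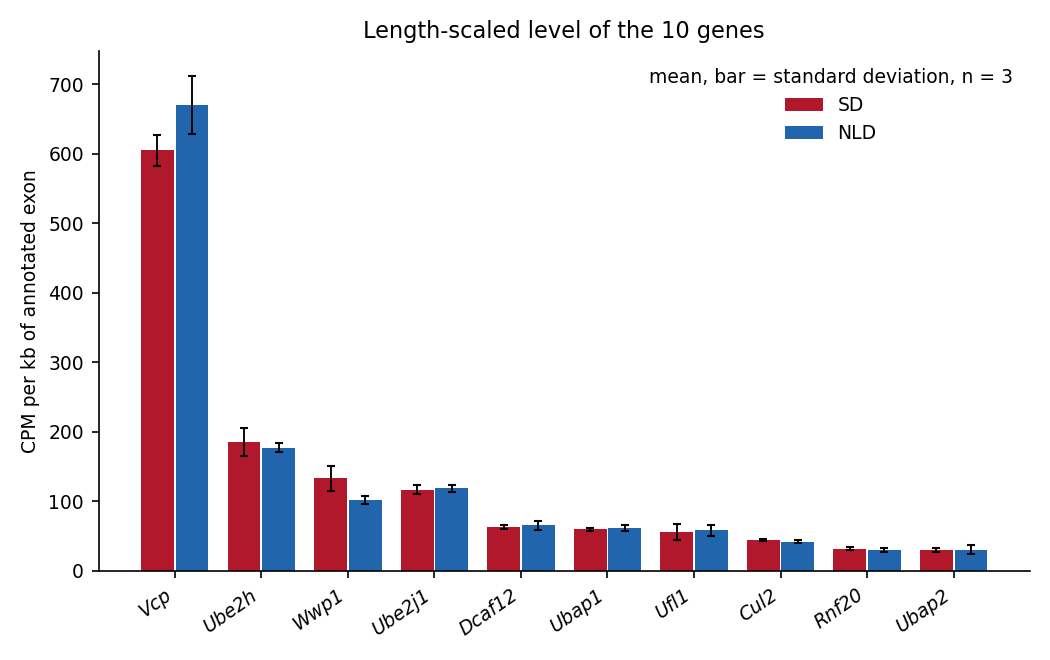
Mean CPM per kilobase of exon of each gene under SD (left bar) and under NLD (right bar) on a linear axis from 0, with lines of 1 standard deviation (n = 3 each). Vcp stands above the other 9 genes in both groups.

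The replicates of these genes were mostly close to each other. The coefficient of variation within a group was 3.32% to 21.3%, with medians of 6.29% under SD and 6.71% under NLD, against 21.1% under SD and 26.7% under NLD over all rows tested. The median standard error of the log2 fold change was 0.13, against 0.35 over all rows and 0.20 over the 347 position-stable rows tested. The median size of the log2 fold change was 0.07, against 0.32 over all rows and 0.26 over those 347 rows. The median level was 457 CPM for the 10 genes, against 174 CPM over those 347 rows.

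**Figure D5:**
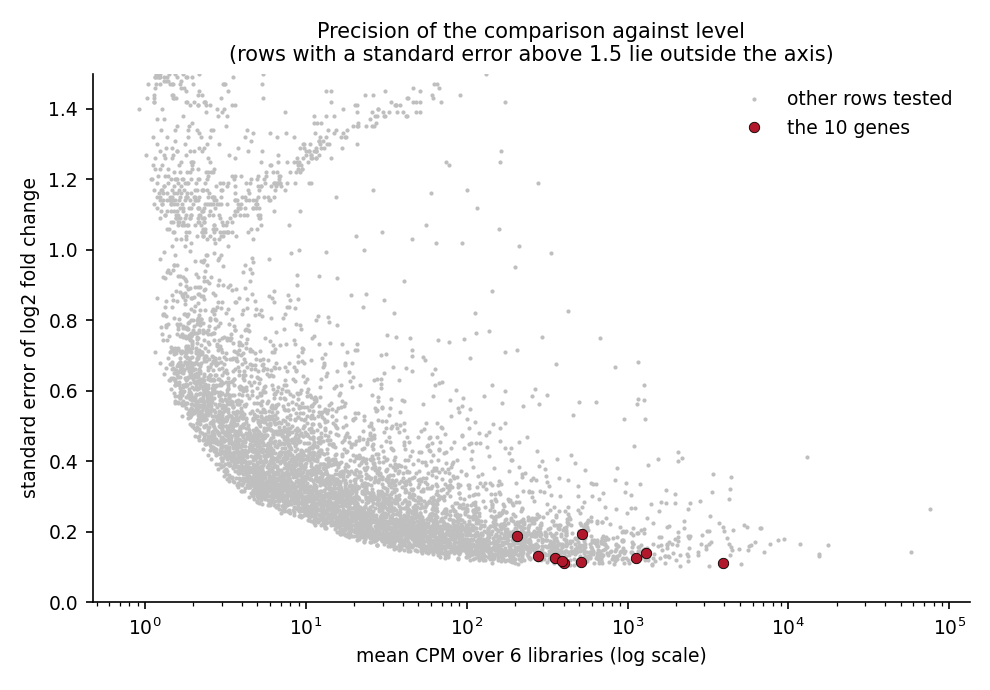
Standard error of the log2 fold change (linear axis) against mean CPM over the 6 libraries (log axis), 1 point per row tested, with the 10 genes in red and 348 rows above 1.5 outside the axis. The 10 genes lie at high CPM and low standard error, with a median standard error of 0.13 against 0.35 over all rows.

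The patterns over the 6 libraries were compared as the root mean square difference of centred log2 CPM, a description in which low values mean similar patterns. Among the 10 genes, Ube2j1 and Cul2 were closest at 0.0663, and Vcp and Wwp1 were farthest apart at 0.313. Among 337 other position-stable rows, Rnf20 was closest to Tgs1 at 0.0294, Ubap1 to Nans at 0.0384, Vcp to Rab18 at 0.0439, Dcaf12 to Dcun1d5 at 0.047 and Ube2j1 to Ccnc at 0.0487. Wasl at 0.0604 was closest to Ube2h, Dnajc25 at 0.0686 to Cul2, Casd1 at 0.0749 to Wwp1, Rgp1 at 0.0767 to Ubap2 and Nbn at 0.097 to Ufl1. All these values come from the same 6 libraries.

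Other genes of the pathway were taken from 12 lists of ubiquitin enzymes, cofactors and the proteasome, which include 9 of the 10 genes. Of 341 listed genes 135 were tested, and 0 passed an adjusted p under 0.05 by edgeR, against 0.289% of all rows, and 1 by DESeq2, against 1.89%. With no filter on low counts DESeq2 gave 0 as well. At an unadjusted p under 0.05 from edgeR, 10 were higher, against 4.46% of all rows, and 1 was lower, against 4.02%. The median log2 fold change was 0.07, against 0.03 over all rows. The gene called by DESeq2 with the filter was Stambp, a deubiquitinase of endosomes, named after its values were seen. Stambp had 13.7, 19.7 and 19.2 CPM under SD, against 4.12, 6.86 and 6.3 CPM under NLD, a 3.04-fold difference (adjusted p = 0.195 from edgeR and 0.0039 from DESeq2), and its row is not position-stable.

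Of the 333 listed genes in the table, 134 were at 0 in all 6 libraries, 25 of 50 proteasome genes and 5 of 6 genes of ubiquitin and E1 enzymes among them. Of the 17 position-stable ones, 0 were at 0. These 17 were 9 of the genes described above and 8 more, and 0 of them passed an adjusted p under 0.05, against 0.288% of the 347 position-stable rows by edgeR, all higher under SD, and 4.32% by DESeq2. By edgeR 2 of the 17, Wwp1 and Usp45, were higher at an unadjusted p under 0.05 and 0 were lower, where 7.78% of the 347 rows were higher, 5.76% were lower and 13.5% were either. Every SD library was above every NLD library in 13.5% of the 347 rows and below in 9.22%.

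Usp45, a deubiquitinase, had 209.8, 186 and 228 CPM under SD, against 163, 139.6 and 156 CPM under NLD. Its groups did not overlap, and its log2 fold change was 0.44 (adjusted p = 0.494 from edgeR). Ubxn2b, a cofactor of p97, had 87.2, 78.1 and 77.7 CPM under SD, against 71.5, 54.9 and 61.0 CPM under NLD. Its SD libraries were also all above the NLD libraries, with a log2 fold change of 0.38 (adjusted p = 0.59 from edgeR). The E2 Ube2r2 had 1042, 1113 and 1187 CPM under SD, against 1229, 1440 and 1250 CPM under NLD, all SD libraries below, with a log2 fold change of -0.23 (adjusted p = 0.641 from edgeR). The groups overlapped for the other 5, with log2 fold changes of -0.28 for the proteasome subunit Sem1, 0.14 for Wac, 0.09 for the deubiquitinase Otud6b, 0.08 for Dcaf10 and -0.08 for Dcun1d5.

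By list, the median log2 fold change over all rows tested ran from -0.18 for p97 and its cofactors, with Vcp, to 0.39 for the HECT ligases, with Wwp1. Each list had at most 4 position-stable rows tested. Over those rows alone the median was 0.11 for p97 (2 rows), -0.28 for the proteasome (1 row) and 0.27 for deubiquitinases (2 rows). It was 0.39 for the HECT ligases (1 row, Wwp1) and between -0.08 and 0.13 for the other lists with such rows. In the p97 list 5 of 12 rows tested were above 0 and 7 below, where 53.0% of all rows were above 0. Of these 12, 0 had an unadjusted p under 0.05 from edgeR, against 8.48% of all rows. In the HECT list 13 of 15 were above 0, against 53.0% of all rows, and 3 were higher at an unadjusted p under 0.05, against 4.46%, of which only Wwp1 is position-stable. Over all rows tested, most of them not position-stable, the median was -0.02 for the E2 enzymes and for ER-associated degradation and -0.01 for UFMylation. It was 0.02 for deubiquitinases, 0.11 for cullin-RING ligases and 0.12 for the proteasome and for H2B monoubiquitination. ESCRT-I had 0.20 and the GID/CTLH complex 0.31. Their only position-stable rows were Ubap1 at -0.04 and Ube2h at 0.06.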

How the data were processed

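The data were liver RNA libraries of 3 SD and 3 NLD mice, each from a single mouse. Gene counts were deposited as whole numbers, without normalization. The study's methods name fastp, HISAT2, Samtools and StringTie with the genome GRCm39, whereas GRCm38 and mm10 stand in the submitters' notes on processing. Strand setting, counting script and read length were not given in the sources used here. Reads in bases that overlapping or antisense genes share therefore cannot be assigned to either gene. Totals were 5497797 to 6932965 counts per library, and the lowest count of the 10 genes was 972. Columns were matched to mice by their names. No libraries of a group agreed within sampling noise, with a chi-square per row of at least 31.5.

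The fit used edgeR 4.0.16 under R 4.3.3 (TMM, filterByExpr, robust glmQLFit, glmQLFTest, two-sided, Benjamini-Hochberg over all 7261 rows). Position-stable rows were protein-coding genes for which the nearest RefSeq GRCm38.p6 promoter windows on either side, of any gene, lay within 10 bases of the same place in GRCm39. No windows were used on chromosome 18. There the median difference between the gene tables of both builds over up to 11 neighbouring genes had to be at most 10 bp. For Cul2 this median was 3.5 bp over 8 genes, of which 6 were within 10 bp, so its position is less directly shown. No coordinate was converted. The 5 motifs searched in 250 bases before each start were the E-box, D-box, UPR element, CRE and CCAAT box. The D-box (TTANGTAA) was found before another RefSeq start of Ube2h and in 2.06% of the windows. The CCAAT box was found before Dcaf12, Ubap1 and Vcp and in 33.8% of the windows. Named were the 10 genes, up to 3 other position-stable genes per list by the smallest p, list genes with an adjusted p under 0.05, and the row closest in pattern to each of the 10. Alternatives were RLE and upper quartile factors, other filters, no robust estimation, DESeq2 1.42.0, a block for the replicate number, leaving out each library, and the 10 most abundant rows left out. Keeping only position-stable rows and summing overlapping rows were chosen after seeing the data. The 10 genes and the lists were chosen with earlier results of these data known.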

Additional observations from a re-analysis of the deposited data

How the results depend on the processing

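None of the 10 genes passed an adjusted p under 0.05 under any of the alternatives run. Their log2 fold changes kept their direction in 158 values under alternatives and changed sign in 12, none of them called. Ubap2 had a log2 fold change of 0.00 with upper quartile factors and with at least 10 counts in every library. With a library left out, log2 fold changes ranged from -0.15 to 0.15 for Ubap2, from -0.10 to 0.02 for Dcaf12, from -0.03 to 0.13 for Ube2h, from -0.05 to 0.03 for Ube2j1, from -0.24 to 0.08 for Ufl1, from 0.05 to 0.20 for Rnf20, from 0.03 to 0.11 for Cul2, from -0.10 to 0.00 for Ubap1, from -0.20 to -0.11 for Vcp and from 0.28 to 0.47 for Wwp1. Over the whole table edgeR called 21 rows, against 44 with no filter, 137 with DESeq2, 89 with DESeq2 and no filter, and 1 among position-stable rows only. Without SD replicate 1, 2 or 3 it called 0 rows each, with 437, 681 and 397 at an unadjusted p under 0.05, and over all libraries left out 0 to 30. In the pathway lists DESeq2 called 1 row with the filter and 0 without it, against 0 by edgeR. The cause was not tested.

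With the replicate number as a block edgeR called 0 rows, with 766 at an unadjusted p under 0.05, and Wwp1 had an unadjusted p of 0.0533 (adjusted p = 0.477), while Ubap2 had a log2 fold change of 0.01. The correlations of deviations from the group mean between same-numbered SD and NLD libraries were low, at 0.0762, 0.0686 and 0.036. Among the 3 libraries of the other group only, each of the 6 libraries was closest to the one of its own number. This is at most a hint from the data and not the design. The libraries were not treated as paired.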
